A study of Mus musculus with 18 samples.

Results

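The genes described here are 33 that are known chiefly from vascular endothelial cells, the cells that line blood vessels: adhesion molecules of their junctions, receptors for the growth factors of vessels, their transcription factors, and enzymes and channels of the capillary wall. They are a list of names, drawn up when earlier results of these data were known, and no value enters the rule that picks them. Each was read as the probe set with that gene's symbol alone in the platform annotation, and all 33 had exactly 1 such probe set, among 19938 genes measured. The samples were total RNA of mouse terminal bronchiolar epithelial cells, the lining of the smallest conducting airways of the lung. Mice were of mixed FVB/N and C57BL/6 background, and were either control or Cebpa d/d, the latter named for Cebpa, which encodes the transcription factor C/EBP alpha. Every group, including those at 0 hr, carries the label of naphthalene injury, a treatment that damages club cells because their cytochrome P450 Cyp2f2 turns naphthalene into a toxic product. Arrays of both genotypes were made 0, 3 and 72 hr after naphthalene, 3 for each genotype and time, which gives 18 arrays in 6 groups. The age of the mice, the agent or driver that made the d/d genotype and the way the cells were collected are not stated in the labels, and no label states that replicates are different animals, so the spread behind the p-values could be partly technical.

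Endothelial cells respond to VEGF-A through the receptor tyrosine kinases Kdr and Flt1, and to the angiopoietins through Tek, whose partner Tie1 binds no angiopoietin well and whose phosphatase Ptprb keeps it quiet. Contacts between the cells rest on the cadherin Cdh5 and on Pecam1. In the lung these cells form the dense capillary bed around the alveoli and the vessels that run with the airways, and they are not part of the bronchiolar epithelium. Some members are also made by other cells, and which cells gave the signal in these arrays was not tested. In bulk RNA fewer endothelial cells and less RNA per endothelial cell cannot be told apart.

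The promoters of the 4 receptor genes are shown because these receptors are the core of both growth factor pathways. The sequences are RefSeq's for assembly GRCm38.p6, on the strand of the gene, from 250 bases before to 50 after the annotated start. Capitals mark AGGAAG or its reverse complement CTTCCT, which holds the core bound by ETS factors such as the member Erg, and AGATAA or TTATCT, a sequence bound by GATA factors.
Tek (chr4:94739039-94739338, plus strand): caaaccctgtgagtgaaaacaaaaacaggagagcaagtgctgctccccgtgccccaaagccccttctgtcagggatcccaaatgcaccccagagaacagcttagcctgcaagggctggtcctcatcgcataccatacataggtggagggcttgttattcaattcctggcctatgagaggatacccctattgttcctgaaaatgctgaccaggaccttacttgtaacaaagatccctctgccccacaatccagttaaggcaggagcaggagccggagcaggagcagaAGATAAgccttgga
Tie1 (chr4:118489800-118490099, minus strand): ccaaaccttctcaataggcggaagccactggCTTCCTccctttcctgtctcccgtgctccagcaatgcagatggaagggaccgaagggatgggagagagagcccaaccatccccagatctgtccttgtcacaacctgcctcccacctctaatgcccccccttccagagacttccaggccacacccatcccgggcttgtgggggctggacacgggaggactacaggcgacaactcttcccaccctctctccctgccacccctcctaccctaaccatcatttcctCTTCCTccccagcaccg
Kdr (chr5:75978406-75978705, minus strand): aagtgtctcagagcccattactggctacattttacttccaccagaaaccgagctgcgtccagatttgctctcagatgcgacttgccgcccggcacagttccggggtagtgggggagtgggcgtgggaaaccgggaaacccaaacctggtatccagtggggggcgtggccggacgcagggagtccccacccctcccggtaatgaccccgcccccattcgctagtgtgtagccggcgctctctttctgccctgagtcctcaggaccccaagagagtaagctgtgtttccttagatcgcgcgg
Flt1 (chr5:147725962-147726261, minus strand): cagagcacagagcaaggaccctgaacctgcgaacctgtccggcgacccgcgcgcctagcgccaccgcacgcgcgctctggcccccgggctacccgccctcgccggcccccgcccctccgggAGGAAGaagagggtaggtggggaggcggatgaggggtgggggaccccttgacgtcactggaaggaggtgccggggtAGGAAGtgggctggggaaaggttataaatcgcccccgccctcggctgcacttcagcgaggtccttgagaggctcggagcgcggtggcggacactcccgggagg
The 6 letters AGGAAG were found on either strand 2 times in the Tie1 window and 2 times in the Flt1 window, and AGATAA was found 1 time in the Tek window. The Kdr window held neither. Of the 33 members, 16 had promoter windows, 21 windows in all, and 11 of these (52.4%) held AGGAAG against 35.4% of 32851 windows of the same length. AGATAA was in 3 of the 21 windows (14.3%) against 11.2% of all windows. The motifs do not overlap each other, and a match is a description of the letters only.

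A few facts about the arrays bear on what follows. The array labelled control 0 hr replicate 1 goes against its label, because its log2 level of Cebpa was 7.89, against 9.69 to 10.52 in the other control arrays and 7.83 to 9.07 in the Cebpa d/d arrays. That array also had the highest level of its group for 27 of the 33 members, as against 36% of all genes. The array labelled Cebpa d/d 72 hr replicate 1 stands apart from its group, with the highest Cebpa level of its genotype (9.07) and a Cyp2f2 level of 13.11 against 12.41 and 12.62 in the other two arrays. Read from Xist and Eif2s3y, each 72 hr group was wholly female (3 of 3 arrays), against 1 of 3 in every other group. The club cell gene Scgb1a1 had log2 levels of 12.55 to 12.98 in all arrays, so the labelled epithelium was present throughout. Levels are log2 values, a difference of 1 is a 2-fold change, and differences are given with their standard error (SE) between groups of 3 arrays.

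Endothelial genes were lower after naphthalene in both genotypes. Averaged over the 33 members, the log2 level lay between 8.48 and 8.94 in the 3 control arrays at 0 hr, between 8.10 and 8.45 at 3 hr and between 8.12 and 8.40 at 72 hr. The Cebpa d/d arrays had 8.59 to 8.89, then 8.10 to 8.43 and 8.19 to 8.28. Within each genotype no array at 3 or 72 hr reached the lowest array at 0 hr. A gene is said to have risen or fallen where limma's adjusted p over all 19938 genes was under 0.05. As a mean of both genotypes, 21 members fell from 0 to 3 hr, where 6.21% of all genes fell, and 24 fell from 0 to 72 hr, where 5.75% did. No member rose from 0 hr, beside 6.47% of all genes at 3 hr and 9.78% at 72 hr. The median difference over the 33 members was -0.42 at 3 hr and -0.45 at 72 hr, while the median of all genes lay within 0.1 of 0. Leaving out the array labelled control 0 hr replicate 1 gave counts of 13 at 3 hr and 19 at 72 hr, and leaving out Cebpa d/d 3 hr replicate 3 gave 12 at 3 hr.

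**Figure D1:**
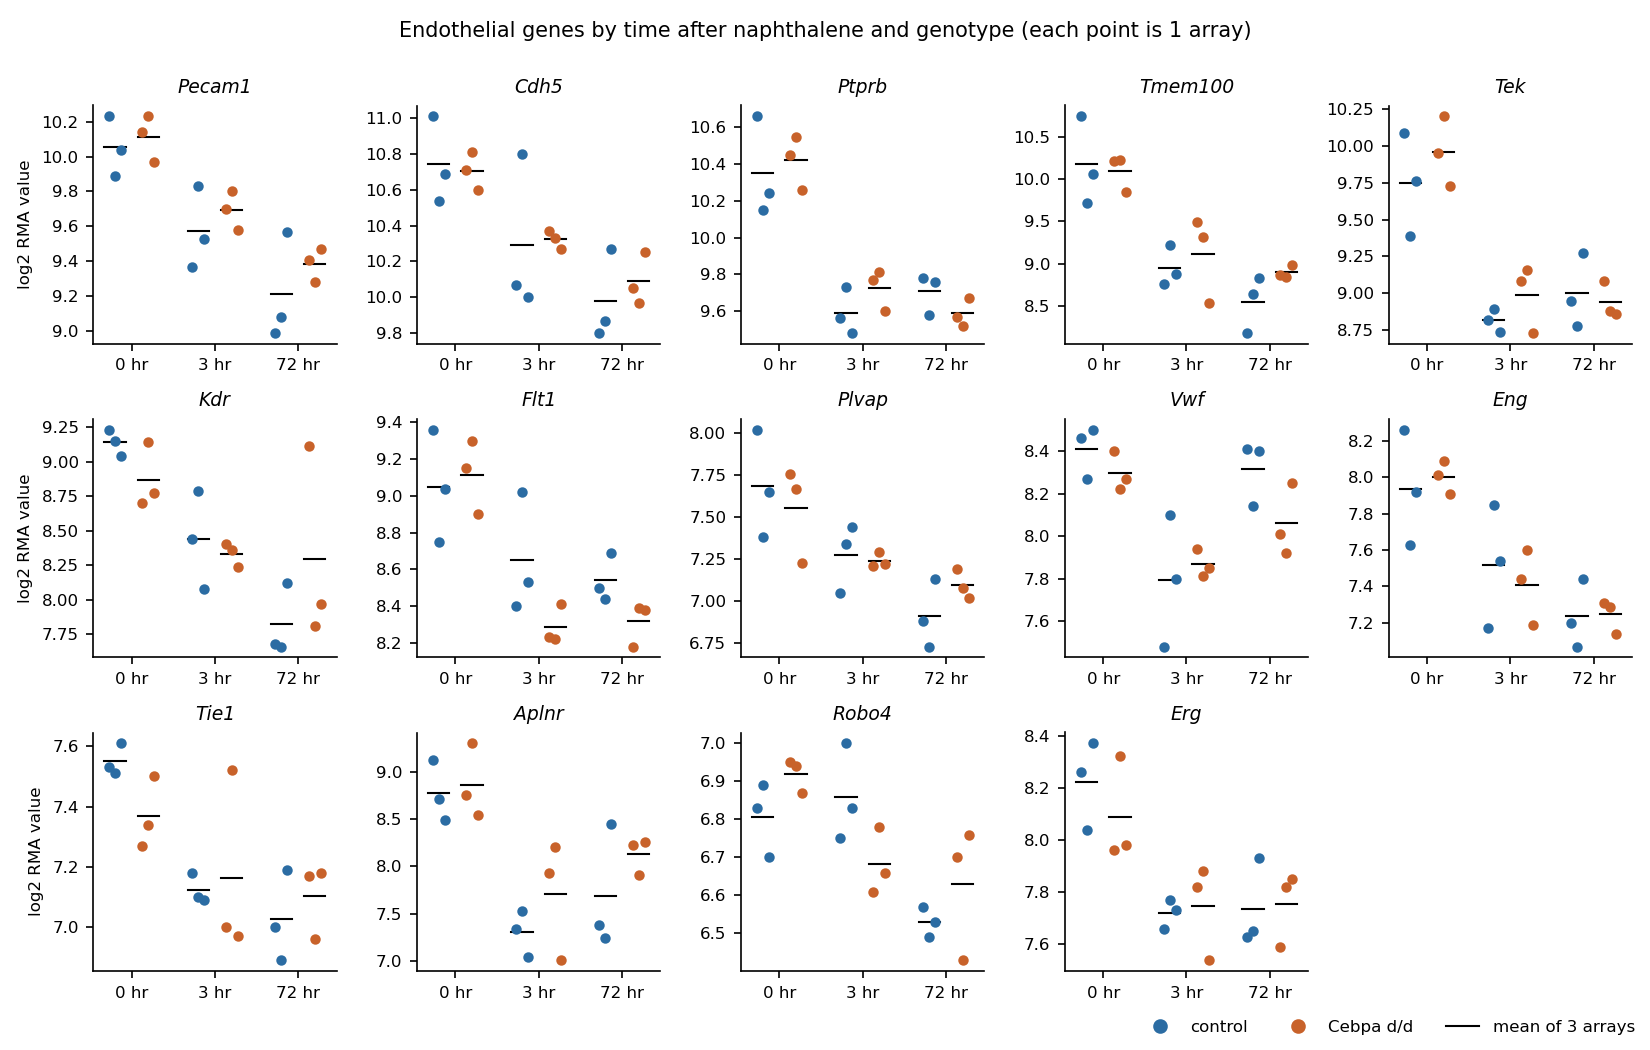
Log2 RMA value of 14 endothelial genes in each array (points, blue for control and orange for Cebpa d/d) with the mean of each group of 3 arrays (lines), by time after naphthalene. In most panels the points at 3 and 72 hr lie below those at 0 hr in both genotypes, while Vwf is back near its 0 hr level at 72 hr in control.

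Within single genotypes the counts were smaller. In control, 7 members fell from 0 to 3 hr, where 1.62% of all genes fell, and 13 fell from 0 to 72 hr, where 2.2% did. Among Cebpa d/d arrays, 5 members fell from 0 to 3 hr, beside 1.72% of all genes, and 7 fell from 0 to 72 hr, beside 1.42%. None rose, where 1.88% and 4.95% of all genes rose in control and 2.66% and 3.39% in Cebpa d/d. Tek, Ptprb, Aplnr and Tmem100 fell at 3 hr in both genotypes, and Pecam1, Tek, Ptprb, Eng and Tmem100 fell at 72 hr in both. Arrays at 3 hr lay wholly below those at 0 hr for 14 members in control (8.98% of all genes) and 20 in Cebpa d/d (11.9%). At 72 hr this held for 20 members in control (12.4%) and 23 in Cebpa d/d (11.3%). The counts in control rest partly on single arrays: at 3 hr they were 2 without control 0 hr replicate 1 or control 3 hr replicate 3, and 4 without control 0 hr replicate 3. With only the 2 groups in the fit, Aplnr alone passed at 3 hr in control. At 72 hr the counts were 6, 8, 6 and 4 without control 0 hr replicate 1, control 0 hr replicate 3, control 72 hr replicate 1 or control 72 hr replicate 2. In Cebpa d/d the count at 3 hr was 3 without replicate 1 or replicate 2 at 0 hr or replicate 3 at 3 hr, and 8 without replicate 2 at 3 hr or control 0 hr replicate 1. At 72 hr it was 3 without Cebpa d/d 72 hr replicate 2 and 13 without control 0 hr replicate 1, which enters this comparison through the shared estimate of spread.

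**Figure D2:**
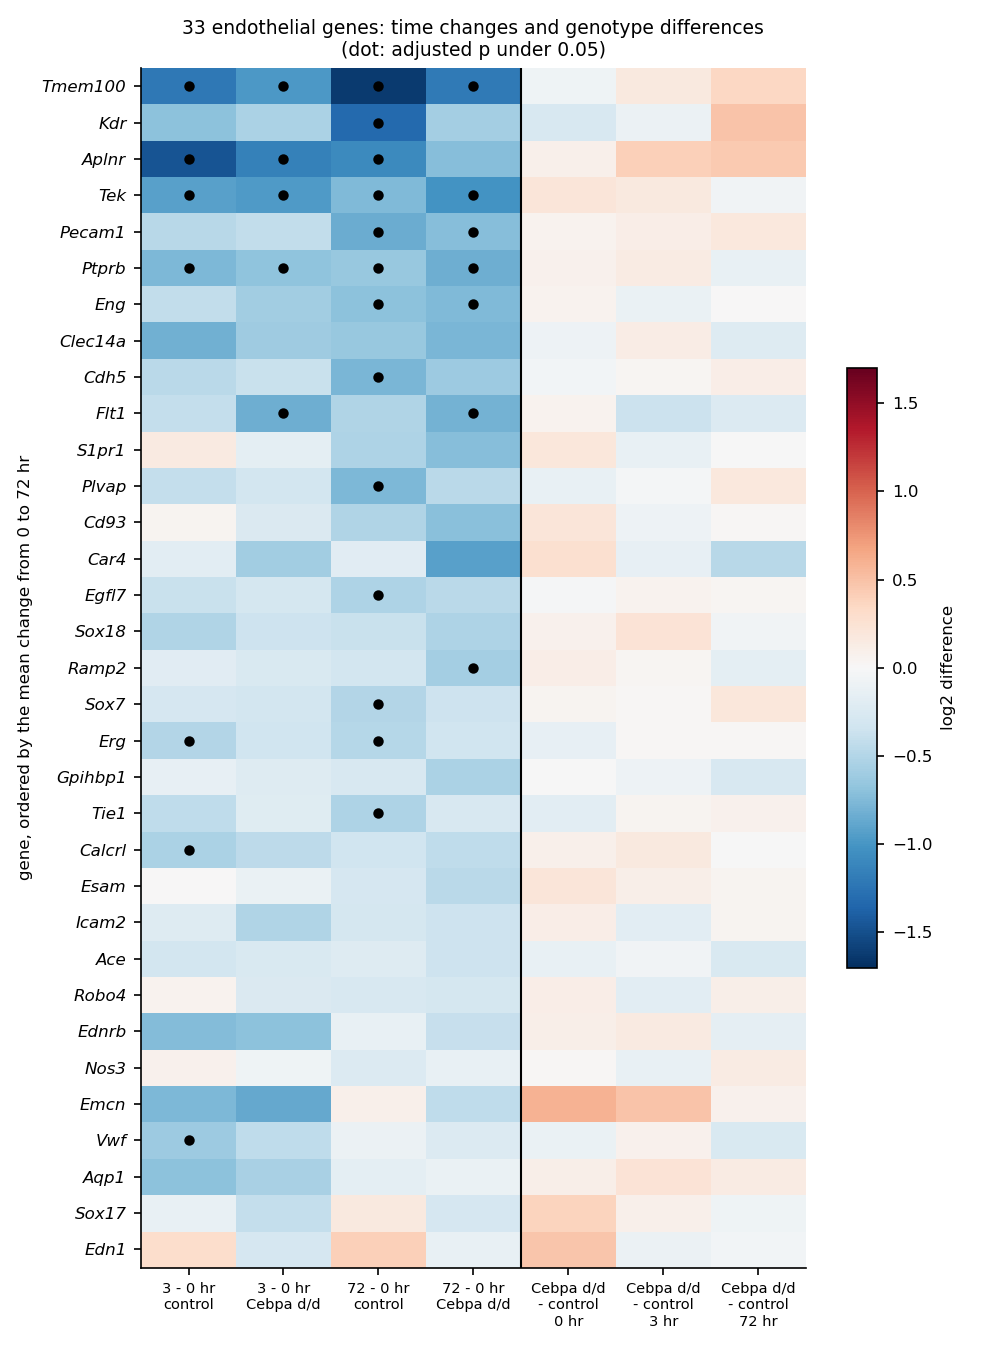
Log2 differences of the 33 members (rows, ordered by their mean change from 0 to 72 hr) in the 4 time changes and 3 genotype comparisons (columns), with a dot where the adjusted p was under 0.05. The time columns are blue, lower than 0 hr, for most genes and carry all the dots, and the genotype columns are pale and hold 0 dots.

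The angiopoietin receptor Tek was among the members that fell in all 4 comparisons with 0 hr. Its log2 level was 10.09, 9.39 and 9.76 in control at 0 hr, 8.82, 8.89 and 8.74 at 3 hr and 8.95, 8.78 and 9.27 at 72 hr. The Cebpa d/d levels were 9.95, 10.20 and 9.73, then 9.08, 9.16 and 8.73, then 9.08, 8.88 and 8.86. No later array of either genotype reached its 0 hr arrays. The fall was -0.93 ± 0.17 at 3 hr (adjusted p = 0.00773) and -0.75 ± 0.17 at 72 hr (adjusted p = 0.0132) in control, and -0.97 ± 0.17 (adjusted p = 0.00278) and -1.02 ± 0.17 (adjusted p = 0.00176) in Cebpa d/d. The call in control at 72 hr was lost without control 72 hr replicate 2 (adjusted p = 0.0797) or control 0 hr replicate 1 (0.0507).

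Ptprb, the endothelial receptor phosphatase that acts on Tek and Cdh5, fell in the same 4 comparisons. In control it had levels of 10.66, 10.15 and 10.24 at 0 hr, 9.56, 9.73 and 9.48 at 3 hr and 9.78, 9.58 and 9.76 at 72 hr, and in Cebpa d/d 10.45, 10.55 and 10.26, then 9.77, 9.81 and 9.60, then 9.57, 9.52 and 9.67. Again no later array reached the 0 hr range. The differences were -0.76 ± 0.12 (adjusted p = 0.00336) and -0.64 ± 0.12 (0.00479) in control at 3 and 72 hr, and -0.69 ± 0.12 (0.00341) and -0.83 ± 0.12 (0.000668) in Cebpa d/d. Each of these held with any 1 of the 18 arrays left out. Tie1, the partner of Tek, had control levels of 7.53, 7.51 and 7.61 at 0 hr, 7.18, 7.10 and 7.09 at 3 hr and 7.0, 6.89 and 7.19 at 72 hr. Control arrays at both later times lay below 0 hr, and the fall passed at 72 hr (-0.53 ± 0.13, adjusted p = 0.0182, held in 15 of 18 repeats that each left out 1 array) but not at 3 hr (-0.43, 0.0693). The Cebpa d/d arrays of Tie1 had 7.27, 7.34 and 7.50, then 7.0, 7.52 and 6.97, then 7.17, 6.96 and 7.18, with changes of -0.20 and -0.27 that did not pass.

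Both VEGF receptors fell as a mean of the genotypes, and the genotype in which the single comparisons passed differed between them. Kdr, the main signalling receptor for VEGF-A, had control levels of 9.23, 9.15 and 9.04 at 0 hr, 8.44, 8.79 and 8.08 at 3 hr and 7.68, 7.66 and 8.12 at 72 hr. These groups did not overlap between 0 hr and either later time, and the fall to 72 hr was -1.32 ± 0.26 (adjusted p = 0.00521). In Cebpa d/d Kdr had 8.70, 9.14 and 8.77, then 8.40, 8.36 and 8.24, then 9.11, 7.81 and 7.97. The value of 9.11 belongs to Cebpa d/d 72 hr replicate 1, the array that stands apart. With it the change to 72 hr was -0.57 ± 0.26 (adjusted p = 0.252), and without it -0.98 (adjusted p = 0.00383). Flt1, which binds VEGF-A tightly and limits its action, had control levels of 9.36, 8.75 and 9.04, then 8.40, 9.02 and 8.53, then 8.50, 8.44 and 8.69, and Cebpa d/d levels of 9.15, 9.30 and 8.90, then 8.23, 8.22 and 8.41, then 8.18, 8.39 and 8.38. The Cebpa d/d groups did not overlap with 0 hr, whereas 1 control array at 3 hr lay inside the 0 hr range. In Cebpa d/d Flt1 fell by 0.83 ± 0.16 on the log2 scale at 3 hr (adjusted p = 0.00677) and by 0.80 ± 0.16 at 72 hr (0.00798), and the control changes of -0.40 (0.169) and -0.51 (0.0694) did not pass. The interaction, the difference between the genotypes in their time changes (Cebpa d/d minus control), passed for neither receptor at either time.

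Eng, a co-receptor for ligands of the TGF-beta family, had control levels of 8.26, 7.63 and 7.92, then 7.17, 7.85 and 7.54, then 7.20, 7.07 and 7.44. Its levels with the d/d genotype were 8.01, 8.09 and 7.91, then 7.44, 7.60 and 7.19, then 7.31, 7.29 and 7.14. By 72 hr both genotypes lay wholly below their 0 hr arrays, with falls of -0.70 ± 0.17 (adjusted p = 0.0188) and -0.76 ± 0.17 (adjusted p = 0.0144), which held in 15 and 14 of the 18 repeats without 1 array. Tmem100, a small membrane protein whose expression in endothelium depends on BMP signalling through Eng and its partner kinase Acvrl1, fell furthest of the members at 72 hr as a mean of genotypes. Its control levels were 10.74, 9.72 and 10.06, then 8.76, 9.22 and 8.88, then 8.18, 8.64 and 8.83, and its Cebpa d/d levels were 10.21, 10.22 and 9.85, then 9.49, 9.31 and 8.54, then 8.87, 8.84 and 8.98. Every later array lay below the 0 hr arrays of its genotype. The falls were -1.22 ± 0.25 (adjusted p = 0.0161) and -1.62 ± 0.25 (0.0013) in control, and -0.98 ± 0.25 (0.0358) and -1.20 ± 0.25 (0.0103) in Cebpa d/d. The 3 hr call in control held in 16 of the 18 repeats, and was lost without control 0 hr replicate 1 (adjusted p = 0.0646) or control 3 hr replicate 3. That in Cebpa d/d held in 15, and was lost without its replicate 1 or 2 at 0 hr or its replicate 3 at 3 hr (0.196), and also when each array was centred. With only the 2 groups of the comparison in the fit, neither passed at 3 hr.

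Among junction and surface genes, Pecam1, which is also carried by platelets and leukocytes, declined over both intervals. Its control levels were 10.23, 9.89 and 10.04 at 0 hr, 9.37, 9.83 and 9.53 at 3 hr and 8.99, 9.08 and 9.57 at 72 hr, and its Cebpa d/d levels were 10.14, 10.23 and 9.97, then 9.70, 9.80 and 9.58, then 9.41, 9.28 and 9.47. All later arrays were below 0 hr in their genotype, and in Cebpa d/d the 3 times did not overlap at all. The fall to 72 hr was -0.84 ± 0.15 in control (adjusted p = 0.00258) and -0.72 ± 0.15 in Cebpa d/d (adjusted p = 0.00776). Platelet markers were measured beside it: 0 of 7 changed at 3 hr and 2 of 7 fell at 72 hr as a mean of genotypes, and of 10 leukocyte markers 1 rose at 3 hr and 2 fell at 72 hr. At these times 6.21% and 5.75% of all genes fell, and 6.47% and 9.78% rose. Whether platelets or leukocytes contribute to the Pecam1 signal was not tested.

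Cdh5, the cadherin of endothelial junctions, had control levels of 11.01, 10.54 and 10.69, then 10.80 in replicate 2 and at most 10.07 in the other two arrays at 3 hr, then 9.80, 9.87 and 10.27 at 72 hr, and Cebpa d/d levels of 10.71, 10.81 and 10.60, then 10.37, 10.33 and 10.27, then 10.05, 9.97 and 10.25. In control 1 array at 3 hr overlapped with 0 hr, and in Cebpa d/d the times were separate. The fall to 72 hr passed in control (-0.77 ± 0.18, adjusted p = 0.0156) and missed the threshold in Cebpa d/d (-0.62 ± 0.18, 0.0598). The control call held in 15 of the 18 repeats and had its highest adjusted p without control 72 hr replicate 2 (0.0755). Plvap, which forms the diaphragms of endothelial pores and vesicles, had control levels of 8.02, 7.38 and 7.65, then 7.05, 7.34 and 7.44, then 6.88, 6.73 and 7.13, and fell at 72 hr in control (-0.77 ± 0.16, adjusted p = 0.00808), in all repeats but the one without control 72 hr replicate 2 (0.0511). With the d/d genotype it had 7.76, 7.67 and 7.23, then 7.21, 7.29 and 7.22, then 7.19, 7.08 and 7.02, and its change of -0.46 to 72 hr did not pass (0.125). Of the other adhesion genes, Icam2 and the lectin-like Clec14a fell at both times as a mean of genotypes, by 0.36 ± 0.10 and 0.71 ± 0.20 at 3 hr. Esam, a junctional immunoglobulin protein, and Cd93, another lectin-like receptor, changed by -0.05 and -0.10 at 3 hr and fell by 0.37 ± 0.12 and 0.61 ± 0.14 at 72 hr. Egfl7, a protein that endothelial cells secrete into their matrix, fell at both times (-0.34 ± 0.10 and -0.49 ± 0.10). Emcn, a sialomucin of capillary and venous endothelium, fell by 0.82 ± 0.25 at 3 hr (adjusted p = 0.0409) and was -0.18 from its start at 72 hr (0.694). Its control levels were 9.15, 7.59 and 7.88 at 0 hr and 7.32, 7.91 and 7.10 at 3 hr. The 9.15 belongs to control 0 hr replicate 1, the array that goes against its label. In Cebpa d/d they were 8.91, 9.14 and 8.33, then 8.01, 8.39 and 7.36, so 0 and 3 hr overlapped in both genotypes.

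The ETS factor Erg, which maintains endothelial identity, had control levels of 8.26, 8.04 and 8.37, then 7.66, 7.77 and 7.73, then 7.63, 7.65 and 7.93, and Cebpa d/d levels of 7.96, 8.32 and 7.98, then 7.82, 7.88 and 7.54, then 7.59, 7.82 and 7.85. All later arrays lay below those at 0 hr in both genotypes. Its falls of -0.50 ± 0.13 (adjusted p = 0.0401) and -0.48 ± 0.13 (0.0278) passed in control, and those of -0.34 at both times in Cebpa d/d did not (0.156 each). The control calls held in 9 and 14 of the 18 repeats, with the highest adjusted p values without control 0 hr replicate 3 (0.14) and control 72 hr replicate 2 (0.119). Of the related factors Sox7, Sox17 and Sox18, Sox18 fell at both times as a mean of genotypes (-0.43 ± 0.14 and -0.45 ± 0.14), Sox7 at 72 hr (-0.43 ± 0.10), and Sox17 passed at neither (-0.26 and -0.06).

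Aplnr, the apelin receptor, showed the largest fall of the members at 3 hr as a mean of genotypes (-1.31 ± 0.22, adjusted p = 0.00114). Its control levels were 9.12, 8.71 and 8.49, then 7.34, 7.53 and 7.04, then 7.38, 7.24 and 8.45, and its Cebpa d/d levels were 8.75, 9.30 and 8.54, then 7.93, 8.20 and 7.01, then 8.23, 7.91 and 8.26. No later array reached the 0 hr arrays of its genotype, although control 72 hr replicate 3, at 8.45, came near. It fell in control at both times (-1.47 ± 0.31, adjusted p = 0.0191, and -1.08 ± 0.31, adjusted p = 0.0468) and in Cebpa d/d at 3 hr (-1.15 ± 0.31, adjusted p = 0.0475). The last 2 calls held in 7 and 5 of the 18 repeats that left out 1 array, with the highest adjusted p values without control 72 hr replicate 2 (0.21) and, in Cebpa d/d, without replicate 3 at 3 hr (0.25). Calcrl and Ramp2 together form the receptor for adrenomedullin, which tightens the endothelial barrier. Calcrl fell at both times as a mean of genotypes (-0.49 ± 0.10 and -0.38 ± 0.10), and Ramp2 passed at 72 hr (-0.45 ± 0.11, adjusted p = 0.00924) and not at 3 hr (-0.22, 0.202). Ednrb, the endothelin receptor that also clears endothelin from blood, fell at 3 hr (-0.72 ± 0.17, adjusted p = 0.00973) and did not pass at 72 hr (-0.26, 0.335).

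S1pr1, the receptor through which sphingosine 1-phosphate stabilises endothelial junctions, was unlike Aplnr in its timing. It had control levels of 9.74, 9.25 and 9.37, then 9.06, 10.08 and 9.67, then 8.70, 8.87 and 9.21, and Cebpa d/d levels of 9.91, 9.47 and 9.57, then 9.52, 9.44 and 9.48, then 8.70, 9.02 and 9.04. The 0 and 3 hr arrays overlapped in both genotypes, and the 72 hr arrays lay below all 0 hr arrays. As a mean of genotypes it changed by -0.01 ± 0.15 at 3 hr and fell by 0.63 ± 0.15 at 72 hr (adjusted p = 0.00805).

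Of the remaining genes of the capillary wall, Aqp1, a water channel, fell by 0.62 ± 0.14 at 3 hr (adjusted p = 0.00961) and was -0.13 from its start at 72 hr (0.584). Gpihbp1, which holds lipoprotein lipase on the capillary surface, fell by 0.41 ± 0.12 at 72 hr. Robo4, a guidance receptor that steadies vessels, had control levels of 6.83, 6.89 and 6.70, then 6.75, 7.0 and 6.83, then 6.57, 6.49 and 6.53, and Cebpa d/d levels of 6.95, 6.94 and 6.87, then 6.61, 6.78 and 6.66, then 6.70, 6.43 and 6.76. In control the 0 and 3 hr arrays overlapped and those at 72 hr were lower than both. In Cebpa d/d the 3 hr arrays already lay below all 0 hr arrays and overlapped with those at 72 hr. As a mean of genotypes Robo4 fell by -0.28 ± 0.07 from 0 to 72 hr (adjusted p = 0.00824). The 5 members that passed at neither time as a mean of genotypes were Sox17, Nos3, Ace, Car4 and Edn1. Nos3, the endothelial nitric oxide synthase, changed by 0.00 and -0.18, and Ace, which makes angiotensin II, by -0.29 at both times. Car4, a carbonic anhydrase on lung capillaries, changed by -0.39 and -0.56. Edn1, the peptide endothelin 1, which airway epithelium makes as well, changed by 0.01 and 0.14.

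Timing therefore divided the members as a mean of genotypes: 17 fell at both times, 4 passed at 3 hr only (Vwf, Emcn, Ednrb and Aqp1) and 7 at 72 hr only (Esam, Sox7, Robo4, Cd93, Ramp2, Gpihbp1 and S1pr1). The changes to 3 and 72 hr are taken from the same 0 hr arrays, so falls at both times are not independent results. Passing at one time and not the other is no test of a difference between the times, so 72 hr was compared with 3 hr directly, a comparison over both genotypes that was added after the values had been seen. Between these times S1pr1 (-0.61 ± 0.15, adjusted p = 0.00528), Cd93 (-0.51 ± 0.14, 0.0123), Pecam1 (-0.34 ± 0.10, 0.0232) and Robo4 (-0.19 ± 0.07, 0.0442) fell, and Vwf (0.36 ± 0.09, 0.0102) and Aqp1 (0.49 ± 0.14, 0.0197) rose. That is 4 lower and 2 higher of 33, beside 12% and 14.7% of all genes, so the members passed no more often than genes at large between these times. The Pecam1 and Robo4 calls held in 13 and 7 of the 18 repeats without 1 array, and that of Aqp1 in 15. The total of 6 became 3 without Cebpa d/d 72 hr replicate 2. With sex as a term, 3 members passed, all lower, where 6.52% of all genes were lower and 9.91% higher.

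Vwf, the clotting protein stored by endothelial cells, passed in both directions in control. It had control levels of 8.46, 8.27 and 8.50 at 0 hr, 7.48, 8.10 and 7.80 at 3 hr and 8.41, 8.14 and 8.40 at 72 hr, and Cebpa d/d levels of 8.40, 8.22 and 8.27, then 7.94, 7.81 and 7.85, then 8.01, 7.92 and 8.25. In both genotypes all 3 hr arrays lay below all 0 hr arrays, and at 72 hr the arrays of both genotypes overlapped with 0 hr again. In control it fell by 0.62 ± 0.13 to 3 hr (adjusted p = 0.0203) and rose by 0.52 ± 0.13 from 3 to 72 hr (0.0128), calls that held in 15 and 16 of the 18 repeats. With only the 2 groups of each comparison in the fit both calls were lost, and with sex as a term the rise was 0.41 ± 0.14 and did not pass (adjusted p = 0.0712). Over the same interval Robo4 (-0.33 ± 0.09, 0.0227) and S1pr1 (-0.67 ± 0.21, 0.0326) fell. Thus 2 members were lower and 1 was higher, beside 8.57% and 11.2% of all genes, so the shares were below those of all genes. The total of 3 became 5 without control 0 hr replicate 1 and 1 without control 72 hr replicate 2. In Cebpa d/d no member passed between 3 and 72 hr, beside 8.55% of all genes, and the smallest unadjusted p values were those of S1pr1 (-0.56 ± 0.21, adjusted p = 0.117) and Cd93 (-0.46 ± 0.20, adjusted p = 0.179), among 4 members with an unadjusted p under 0.05, a threshold that 21.4% of all genes met. A single member passed there without control 3 hr replicate 1 or without Cebpa d/d 3 hr replicate 3.

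Genotype was compared at each time to ask whether endothelial transcripts differed between Cebpa d/d and control at the start of the time course or after it. No member passed at 0, 3 or 72 hr or as a mean of the 3 times by limma, beside 0.336%, 0.015%, 0.0702% and 0.306% of all genes, and 2, 1, 0 and 0 members had an unadjusted p under 0.05, as 8.53%, 5.02%, 6.31% and 8.57% of all genes did. At 0 hr these were Edn1 and Sox17, both higher in Cebpa d/d with no overlap of arrays, as 5.88% of all genes were. Edn1 had 7.70, 7.52 and 7.45 in Cebpa d/d and 6.96, 7.11 and 7.17 in control (0.48 ± 0.15, adjusted p = 0.319), and Sox17 had 7.24, 7.52 and 7.01 against 6.99, 6.83 and 6.81 (0.38 ± 0.17, 0.572). At 3 hr it was Flt1, lower in Cebpa d/d by -0.37 ± 0.16 (adjusted p = 0.977), and Robo4 came next (-0.18 ± 0.09, adjusted p = 0.986). At 72 hr the smallest unadjusted p values belonged to Vwf (-0.25 ± 0.13) and Kdr (0.48 ± 0.26), each with an adjusted p of 0.815. As a mean of the 3 times they belonged to Flt1 (-0.18 ± 0.09, adjusted p = 0.655) and Emcn (0.38 ± 0.21, adjusted p = 0.67). The 95% interval of a member's difference at 1 time reached a median of 0.349 to either side, which is close in size to the median fall after naphthalene, so a failure to pass does not show that the genotypes were alike. Across members the lowest and highest bounds were -0.81 and 1.34 at 0 hr, -0.71 and 1.23 at 3 hr, and -1.03 and 1.11 at 72 hr.

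No member passed in the interaction at 3 hr or at 72 hr, beside 0% and 0.0953% of all genes, with 2 members and 1 member at an unadjusted p under 0.05, as were 6.85% and 4.47% of all genes. Edn1 had the smallest p at both times (-0.58 ± 0.22, adjusted p = 0.698, and -0.53 ± 0.22, adjusted p = 1), followed by Robo4 at 3 hr (-0.30 ± 0.13, adjusted p = 0.716) and Kdr at 72 hr (0.75 ± 0.36, adjusted p = 1). The changes in the 2 genotypes rest on separate arrays, and across the 33 members they correlated at r = 0.83 (rho = 0.79) at 3 hr and r = 0.67 (rho = 0.66) at 72 hr. These are descriptions across genes that are not independent of each other. At 3 hr 27 members were lower in both genotypes and 6 had opposite signs, and at 72 hr 30 were lower in both and 3 had opposite signs.

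**Figure D3:**
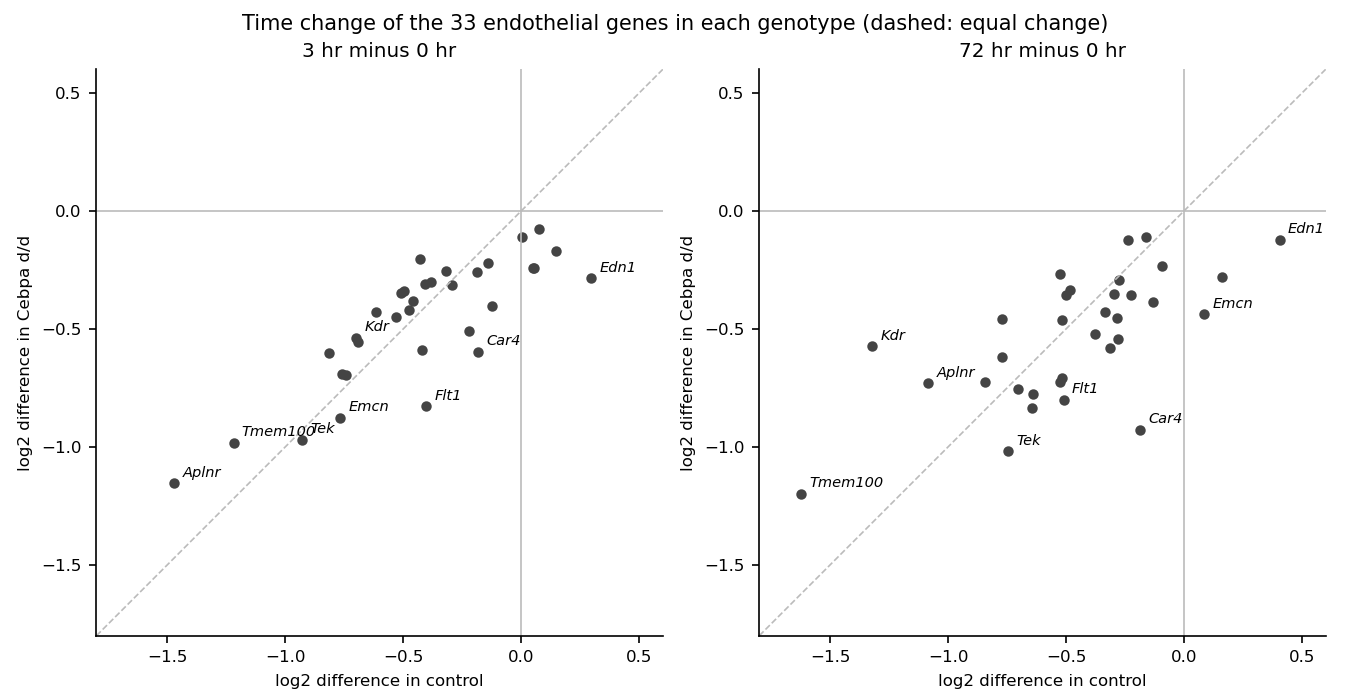
Log2 change from 0 hr of each of the 33 members in control (x axis) and Cebpa d/d (y axis), at 3 hr and at 72 hr, with some genes named and a dashed line where the changes are equal. Most points lie at lower left, where both changes are negative, and Edn1 is higher in control and lower in Cebpa d/d at both times.

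Other endothelial genes, a list of 38 measured genes that holds no member, moved in the same direction. As a mean of genotypes 14 fell and 0 rose at 3 hr, where 6.21% of all genes fell and 6.47% rose. At 72 hr 16 fell and 0 rose, beside 5.75% and 9.78% of all genes. In single genotypes 4 fell at 3 hr in control and 5 in Cebpa d/d, beside 1.62% and 1.72% of all genes. The mean of this list in control 3 hr replicate 2 was 8.22, within the control 0 hr range of 8.12 to 8.49. Tspan18, a tetraspanin of endothelial cells, fell by 0.69 ± 0.11 at 3 hr, and Adgrf5, an adhesion receptor of lung endothelium and alveolar epithelium, by 0.35 ± 0.07 and 0.56 ± 0.07. Acvrl1, the kinase receptor that works with Eng, fell by 0.51 ± 0.09 at 3 hr (adjusted p = 0.00158) and 0.68 ± 0.09 at 72 hr (adjusted p = 8.31e-05). Of 28 co-receptors and signalling genes, 1 of which is a member, 10 fell at 3 hr and 7 fell and 1 rose at 72 hr, among them the VEGF co-receptor Nrp1 at 3 hr (-0.87 ± 0.12) and the ephrin receptor Ephb4 at both times (-0.35 ± 0.07 and -0.39 ± 0.07). Some genes are in several lists, so counts of different lists are not separate. Acvrl1 is in both lists of this paragraph, and Ephb4 is also an artery and vein gene. Of the ligands below, Angpt2 is also an activation gene and Vegfa an alveolar type 1 marker.

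Of 32 vascular ligands, as a mean of genotypes, 2 rose and 6 fell at 3 hr, where 6.47% of all genes rose and 6.21% fell. At 72 hr 2 rose and 7 fell, beside 9.78% and 5.75% of all genes. Ligands thus rose no more often than genes at large. The angiopoietins moved with their receptor at 3 hr: Angpt1, the ligand that activates Tek, fell by 1.10 ± 0.17 (adjusted p = 0.000655), and Angpt2, which in most settings opposes it, fell by 0.98 ± 0.17 (adjusted p = 0.00114). At 72 hr Angpt1 was still lower by 0.57 ± 0.17 (0.0343), while Angpt2 was not among the genes that fell. Vegfa, the ligand of Kdr and Flt1, which alveolar epithelium makes, fell at 72 hr (-0.40 ± 0.08, adjusted p = 0.00308). The 2 ligand genes that rose at 3 hr were Apela, a ligand of Aplnr (0.81 ± 0.09, adjusted p = 2.65e-05), and Sphk1, the kinase that makes sphingosine 1-phosphate (0.88 ± 0.14, adjusted p = 0.000649). Bmp6 fell at both times (-0.70 ± 0.12 and -0.88 ± 0.12), and Slit2, a ligand of the Robo family, rose at 72 hr (0.67 ± 0.11).

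Markers of other cells moved over the same times. Of all genes, as a mean of genotypes, 6.21% fell and 6.47% rose at 3 hr, and 5.75% fell and 9.78% rose at 72 hr. At 3 hr, as a mean of genotypes, 7 of 10 fibroblast markers fell, as did 6 of 14 pericyte, 5 of 10 alveolar type 1 and 3 of 10 smooth muscle markers, and none of the 4 lists had a member that rose. At 72 hr the fibroblast list had 2 higher and 0 lower, pericytes 1 higher and 5 lower, alveolar type 1 cells 2 higher and 3 lower and smooth muscle 1 higher and 0 lower, while of the endothelial members 24 were lower. In control the fibroblast markers had array means between 8.87 and 9.27 at 0 hr, 8.38 and 8.62 at 3 hr, and 9.16 and 9.35 at 72 hr, and in Cebpa d/d between 9.02 and 9.23, 8.63 and 8.89, and 8.95 and 9.27. In both genotypes the fibroblast means at 72 hr thus reached the 0 hr range again, and those of the endothelial members did not. The endothelial members were not alone in this. Platelet means at 72 hr were 6.59 to 6.73 against 6.86 to 7.22 at 0 hr in control. In Cebpa d/d they were 6.68 to 6.74 against 6.84 to 7.09. Club cell means at 72 hr were 11.2 to 11.31 against 11.75 to 12.01 in control, and 11.21 to 11.83 against 11.86 to 11.94 in Cebpa d/d. Cardiac muscle markers were the most uneven list, with array means of 10.26 to 11.13 in Cebpa d/d at 0 hr, 7.67 to 9.38 in control at 0 hr and 7.54 to 8.59 in all later arrays. As a mean of genotypes 9 of 10 cardiac markers fell at both times. Between genotypes at 0 hr 6 of 10 cardiac markers were higher in Cebpa d/d, beside 0.336% of all genes called in either direction. The endothelial members had a median difference of 0.07 there, with none called. That median ran from -0.04 without control 0 hr replicate 2 to 0.19 without the array labelled control 0 hr replicate 1, so its sign is not settled. In control 0 hr replicates 1, 2 and 3 the cardiac means were 8.86, 9.38 and 7.67, and the endothelial means were 8.94, 8.48 and 8.64. Of 10 club cell markers 1 fell at 3 hr and 6 fell at 72 hr, and 7 of 10 ciliated cell markers rose at 72 hr. The alveolar type 1 means in control lay between 9.16 and 9.42 at 0 hr, 8.85 and 9.07 at 3 hr, and 9.16 and 9.31 at 72 hr. The lists share their arrays with the endothelial genes, and their part in the endothelial differences was not tested.

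**Figure D4:**
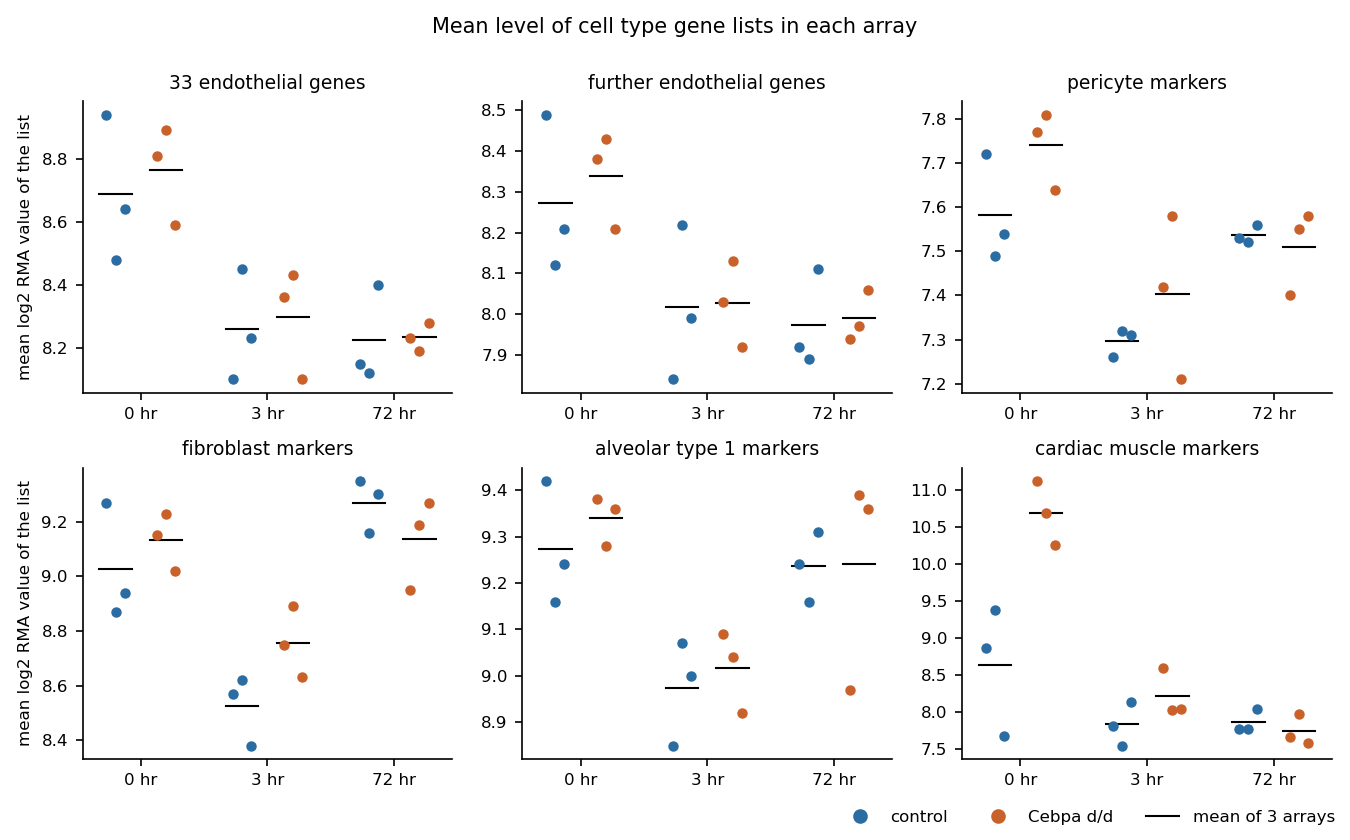
Mean log2 RMA value of the 33 endothelial members, the further endothelial genes and 4 marker lists of other cells in each array (points), with the mean of each group of 3 arrays (lines). The means of the 33 members drop at 3 hr and stay low at 72 hr in both genotypes. Those of the further endothelial genes do so too, but overlap between 0 and 3 hr in control. The fibroblast means drop at 3 hr and return by 72 hr in both genotypes, and the cardiac means are highest in Cebpa d/d at 0 hr.

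The sexes of the arrays differed between times and not between genotypes. With sex as a term in the fit, 18 members fell at 3 hr and 18 at 72 hr as a mean of genotypes, beside 5.84% and 2.49% of all genes. In single genotypes 6 and 11 fell in control, beside 1.26% and 1.01% of all genes, and 4 and 7 in Cebpa d/d, beside 1.62% and 0.958%. The members no longer called were Egfl7, Sox18 and Plvap at 3 hr and Esam, Sox18, Clec14a, Calcrl, Icam2 and Gpihbp1 at 72 hr. Their 72 hr differences with the sex term were -0.47, -0.50, -0.67, -0.38, -0.39 and -0.48, with larger SE than without it. At 72 hr all arrays were female, so at that time a comparison within males could not be made.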

How the data were processed

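Total RNA from 18 samples was hybridised to Affymetrix Mouse Gene ST arrays, per the labels. The deposited values are on the log2 scale; the submitters' processing notes name RMA, with no version, build or filter. Scanner files were not analysed here, nor therefore background or saturation. The number of arrays limits the precision. Of 35557 probe sets, 21789 had 1 gene symbol; the one with the highest mean was kept for each of 19938 genes. Members' symbols matched the RefSeq gene table (33 of 33).

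Group means of the 6 groups were estimated in 1 limma fit over all 18 arrays (limma 3.58.1 in R 4.3.3, with 12 residual and 4.49 prior degrees of freedom). Benjamini-Hochberg adjustment ran over all genes of a contrast, with a threshold of 0.05. The script was tested on simulated data. No filter on low values was used. Array values are given for Pecam1, Cdh5 and members called in a comparison within 1 genotype, up to 14 by smallest adjusted p, and of other lists up to 3 called genes per contrast; S1pr1, Edn1, Sox17, Angpt1 at 72 hr and values of the remaining members were added so that each is accounted for. Members and lists were chosen with earlier results of these data known. Replicate numbers were not used to pair samples, because the labels state no pairing. Deviations from group means correlated at -0.288 to 0.199 between arrays of the same number and at -0.343 to 0.288 between those of different numbers. These ranges cannot exclude a shared batch. Alternatives are in the closing section.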

Additional observations from a re-analysis of the deposited data

Results flagged for a closer look

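A probe set outside the comparisons, because the platform annotation gives it 2 symbols, Malat1 and Ramp2, also fell from 0 to 72 hr as a mean of genotypes: by a log2 difference of -0.19 (adjusted p = 0.0105 over all probe sets). The probe set that carries Ramp2 alone fell by 0.45 over the same interval. Which of the 2 transcripts the shared probe set reads was not tested.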

How the results depend on the processing

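In all 389 recomputations the median difference over the 33 members moved by less than the median spread of single members between replicates. That is a wide margin for a median over 33 genes. Its sign changed in some comparisons with a median near 0, such as Cebpa d/d minus control at 0 hr (-0.04 to 0.19 with 1 array left out). With any 1 array left out, the medians were -0.55 to -0.26 at 3 hr and -0.56 to -0.36 at 72 hr in control, and -0.49 to -0.31 and -0.62 to -0.41 in Cebpa d/d. Counts of members called stayed within 1.5 times in 365 of 404 recomputations and moved in 39. The 365 include every genotype comparison and interaction, where the count was 0 throughout and could not fall, so the share overstates stability. No member was called between genotypes or in an interaction under any adjusted-p alternative.

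With each array left out in turn, the counts were 2 to 8 at 3 hr and 4 to 14 at 72 hr in control, 1 to 5 from 3 to 72 hr in control, 3 to 8 and 3 to 13 in Cebpa d/d at 3 and 72 hr, and 0 to 1 in Cebpa d/d from 3 to 72 hr. As a mean of genotypes they were 12 to 21, 19 to 25 and, from 3 to 72 hr, 3 to 8. With only the groups of the contrast in the fit, 1 member passed at 3 hr in control, 1 from 3 to 72 hr in control, 1 from 3 to 72 hr in Cebpa d/d, and 11 at 72 hr in Cebpa d/d. Centring each array gave 1 from 3 to 72 hr in control and 3 at 3 hr in Cebpa d/d, and leaving out genes below the median level, which kept 29 members, gave 11 at 72 hr in Cebpa d/d. Calling at a 1.5-fold change and p under 0.05 without adjustment gave 10 and 12 in Cebpa d/d at 3 and 72 hr, and 10, 13 and 2 as a mean of genotypes at 3 hr, at 72 hr and from 3 to 72 hr. The sex term gave 3 from 3 to 72 hr as a mean of genotypes. Without both arrays that stand apart, a setting chosen after seeing the data, the counts were 2 and 7 in control at 3 and 72 hr, 7 in control from 3 to 72 hr and 1 in Cebpa d/d from 3 to 72 hr. The cause of these moves was not tested, except that fits with fewer arrays have fewer degrees of freedom.

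The main fit did not use the replicate numbers. With the replicate block, 5 and 10 members passed in control at 3 and 72 hr, 3 and 6 in Cebpa d/d, and 16 and 22 as a mean of genotypes. Counts over all genes moved by more than 1.5 times in 102 of 404 recomputations: 697 genes changed at 3 hr in control (231 to 1414 with 1 array left out) and 1425 at 72 hr (614 to 1633), and 874 (402 to 994) and 958 (398 to 1272) in Cebpa d/d. Under the settings that kept every array or left out 2, counts over all genes ran from 55 to 797 at 3 hr and 790 to 1675 at 72 hr in control. In Cebpa d/d they ran from 696 to 1044 and from 553 to 1441, and as a mean of genotypes from 683 to 2550 and from 911 to 3493. Whether member counts moved more than those of all genes was not tested. Calls of single named members held in 1357 recomputations and were lost in 174, all with the direction kept.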

Other observations

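Genes that tell apart kinds of vessel, 14 measured genes of arteries and veins, had 0 higher and 5 lower at 3 hr and 1 higher and 3 lower at 72 hr as a mean of genotypes. Of all genes, 6.47% were higher and 6.21% lower at 3 hr, and 9.78% higher and 5.75% lower at 72 hr. Gja5, a gap junction protein of arterial endothelium, fell by 1.12 ± 0.16 at 3 hr (adjusted p = 0.000254) and 0.61 ± 0.16 at 72 hr (adjusted p = 0.0144). Of 8 lymphatic endothelial genes, 1 rose and 1 fell at 3 hr, Fgl2 by 0.99 ± 0.23 and Thy1 by -0.43 ± 0.12, and 0 passed at 72 hr. Whether the Fgl2 and Thy1 signals came from lymphatic endothelium was not tested. Of 19 genes of endothelial activation, 2 rose at 3 hr, Plaur, the urokinase receptor (1.82 ± 0.30, adjusted p = 0.000969), and Il6 (3.04 ± 0.76, adjusted p = 0.0148), both of which other cells of the lung also express, and Angpt2 fell.

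Among 14 pericyte markers, both subunits of soluble guanylate cyclase fell at 3 hr, Gucy1a1 by 0.73 ± 0.11 and Gucy1b1 by 1.01 ± 0.18, as did the channel Trpc6 by 0.47 ± 0.10. At 72 hr Gucy1a1 (-0.59 ± 0.11) and Trpc6 (-0.43 ± 0.10) were still lower. Array means of the pericyte list in control lay between 7.49 and 7.72 at 0 hr, between 7.26 and 7.32 at 3 hr and between 7.52 and 7.56 at 72 hr, so the control arrays at 72 hr were within the 0 hr range. In Cebpa d/d they lay between 7.64 and 7.81, 7.21 and 7.58, and 7.40 and 7.58, so no array at 72 hr reached the 0 hr range. No single pericyte marker passed between genotypes at 0, 3 or 72 hr, beside 0.336%, 0.015% and 0.0702% of all genes. None passed in the interaction at 3 or 72 hr, beside 0% and 0.0953% of all genes. The difference between genotypes in the mean of this list was not tested.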
